A study of Mus musculus with 9 samples.

Results

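In mouse neural stem cells (NSCs), 10 genes were followed, namely the FoxO factors Foxo1, Foxo3, Foxo4 and Foxo6, the sestrins Sesn1, Sesn2 and Sesn3, and the stress-response genes Klf9, Txnip and Pik3ip1. They were picked by name, with earlier results of these data known. All 10 were found among the 55704 genes of the expression table by their Ensembl identifiers. The NSCs came from the subventricular zones (SVZs) of adult C57BL/6 mice aged 8 to 9 weeks, with 2 females and 2 males used in each isolation, and had been passaged at least 3 times. The 9 RNA-seq libraries formed 3 groups of 3, labelled as biological replicates. bFGF/EGF-treated NSCs were collected as adherent cells at day 0 in proliferation medium with 20 ng/mL each of bFGF and EGF. For bFGF/BMP4-treated NSCs, EGF was replaced by 20 ng/mL BMP4, and for BMP4-treated NSCs BMP4 replaced both factors, each for 6 days. The labels list B27 without vitamin A for the proliferation medium and B27 for both day-6 media, so neither the time in culture nor this supplement can be told apart from the growth factors in a comparison with bFGF/EGF-treated NSCs. Whether each replicate came from a separate isolation is not stated, so the p-values measure the spread between these libraries.

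FoxO proteins are forkhead transcription factors. When insulin or growth factors activate PI3K and AKT, AKT phosphorylates FoxO proteins and keeps them out of the nucleus, so their activity is set largely at the protein level and cannot be read from mRNA. In adult neural stem cells, FoxO factors are known for maintaining the quiescent stem cell pool, and their targets restrain growth and guard against oxidative and nutrient stress. Sestrins restrain mTORC1 when amino acids are short, Txnip binds thioredoxin and limits glucose uptake, Klf9 is a Krueppel-like transcription factor induced by glucocorticoid and thyroid hormones, and Pik3ip1 is a membrane protein that restrains PI3K.

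Between 15902839 and 17438650 fragments were assigned to genes in each library, and values are in FPKM, fragments scaled to gene length and to the size of the library. Libraries of one group correlated at 0.95 or higher. All 10 genes were among the 20207 that passed the filter of a mean of 0.1 FPKM. A gene was called changed when limma gave a Benjamini-Hochberg adjusted p of at most 0.05 over all genes tested and a fold of at least 2, on the scale of log2(FPKM + 0.1). The 7 NSC markers did not move together. Sox2, a transcription factor of NSCs, had group means of 137 to 167 FPKM, while the intermediate filament gene Nes was at 151 ± 6.4 FPKM with bFGF/EGF (SD, n = 3), 3.55 ± 0.52 FPKM with bFGF/BMP4 and 15.8 ± 5.0 FPKM with BMP4. Fabp7 was highest with bFGF/EGF, at 655 ± 59 FPKM against 272 ± 28 and 484 ± 100 FPKM, and Slc1a3, Pax6 and Hes5 had their lowest means there. The summed level of 5 proliferation markers was 147 to 291 FPKM in bFGF/EGF-treated, 31.8 to 58.7 FPKM in bFGF/BMP4-treated and 8.86 to 9.91 FPKM in BMP4-treated libraries. Markers of microglia (C1qa at 0) and of endothelial and mural cells (Cldn5 at 0) were low in sum and higher at day 6. The microglia sum was at most 0.121 FPKM with bFGF/EGF, 0.391 FPKM with bFGF/BMP4 and 1.52 FPKM with BMP4, where Tmem119 had 1.34 FPKM, and the endothelial and mural sum was at most 0.276, 2.53 and 5.41 FPKM, led by Kdr with 3.31 FPKM in the last. In BMP4-treated NSCs, the sums were higher than in both other groups for 5 neuron markers (105 to 185 FPKM, mostly Tubb3, while Rbfox3 and Syt1 were lower than with bFGF/EGF) and for the 4 of 5 ependymal markers in the table (55.1 to 64.7 FPKM, mostly Foxj1, Tmem212 at 0). Gfap, an intermediate filament of astrocytes and adult SVZ stem cells, was at 2570 ± 440 FPKM (SD, n = 3) in BMP4-treated, 19.4 ± 2.4 FPKM in bFGF/BMP4-treated and 0.0926 ± 0.038 FPKM in bFGF/EGF-treated NSCs. These markers moved with the groups, and their part in the results below was not tested. In bulk RNA a change in the cells of one type and a change in RNA per cell cannot be told apart.

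Compared with bFGF/EGF-treated NSCs, 6 of the 10 genes were higher and 1 was lower in bFGF/BMP4-treated NSCs, where 30.6% of all genes tested were called, 16.5% higher and 14.1% lower. Foxo4, Sesn1, Sesn3, Klf9, Txnip and Pik3ip1 rose, and Foxo6 fell. In BMP4-treated NSCs, 7 were higher and 1 was lower than in bFGF/EGF-treated NSCs, against 36.6% of all genes called, 21.3% higher and 15.4% lower. There Foxo1, Foxo3, Foxo4, Sesn1, Sesn3, Txnip and Pik3ip1 rose, and Sesn2 fell. These comparisons share the bFGF/EGF libraries. Between the 2 day-6 groups, where the labels list the same medium apart from bFGF, Foxo1, Foxo6 and Txnip were higher and Klf9 was lower in BMP4-treated NSCs, which makes 4 of 10 against 13.5% of all genes, 8.41% higher and 5.14% lower. By the adjusted p alone, 7 were higher and 2 lower with bFGF/BMP4 (25% and 23.6% of all genes tested, 48.6% in either direction), 7 higher and 2 lower with BMP4 (29.6% and 25.3%, 54.9% in either direction), and 5 higher and 2 lower with BMP4 than with bFGF/BMP4 (12.2% and 8.89%, 21.1% in either direction). The 3 libraries of one group lay entirely above those of the other for 7 genes and entirely below for 2 with bFGF/BMP4 (30.2% and 27.5% of all genes, 57.7% in either direction) and likewise for 7 and 2 with BMP4 (32.6% and 27.8%, 60.4% in either direction). Between the day-6 groups this held for 5 and 2 genes (20.5% and 18.3%, 38.7% in either direction). The median log2 fold change of the 10 genes was 1.17, 1.31 and 0.49 in the 3 comparisons in this order, beside 0.06, 0.10 and 0.00 for all genes tested.

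**Figure D1:**
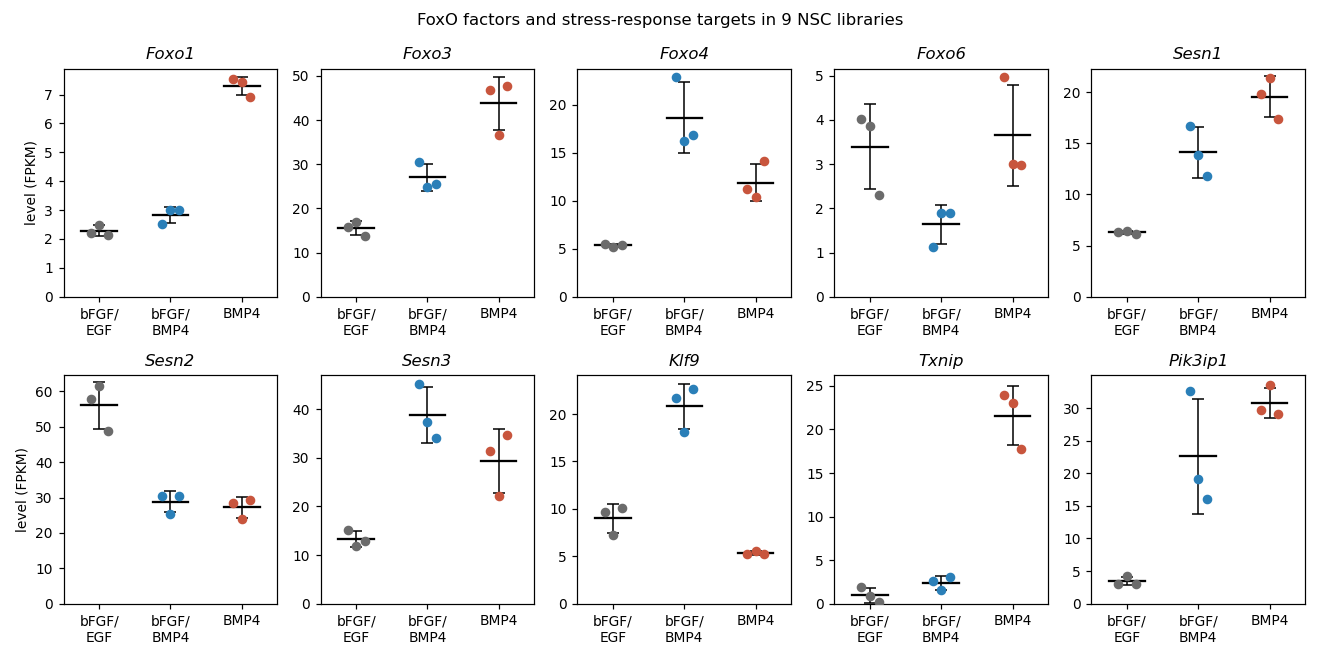
FPKM (vertical axes, each from 0) of the 10 genes in the 9 libraries by group (horizontal axes); points are libraries, and the thick line and bars are the group mean ± SD (n = 3). Txnip lay between 17.7 and 24.0 FPKM in the BMP4-treated libraries and at or below 3.07 FPKM in the others, Klf9 was highest in all 3 bFGF/BMP4-treated libraries, and Sesn2 was highest in all 3 bFGF/EGF-treated libraries.

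Foxo3 (GRCm39 chr10:42057837-42154007, minus strand), the most abundant FoxO gene in every library, had mean levels that went up stepwise from bFGF/EGF- to bFGF/BMP4- to BMP4-treated NSCs. Its levels were 15.8, 17.0 and 13.8 FPKM in the bFGF/EGF-treated, 30.5, 24.9 and 25.6 FPKM in the bFGF/BMP4-treated and 46.8, 36.7 and 47.8 FPKM in the BMP4-treated libraries. No library of one group overlapped another group. The rise from bFGF/EGF to BMP4 was 1.48 on the log2 scale (SE 0.14, adjusted p = 1.27e-05). Both intermediate steps passed the adjusted p but not the fold, with 0.79 (SE 0.14, adjusted p = 0.00105) from bFGF/EGF to bFGF/BMP4 and 0.69 (SE 0.14, adjusted p = 0.0059) from bFGF/BMP4 to BMP4.

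Foxo1 (chr3:52175757-52260642, plus strand), a FoxO factor best known for insulin-regulated metabolism, was higher in BMP4-treated NSCs than in both other groups, a profile held by 6.01% of all genes tested. It was measured at 2.21, 2.50 and 2.15 FPKM in bFGF/EGF-treated, 2.53, 2.99 and 2.99 FPKM in bFGF/BMP4-treated and 7.53, 7.44 and 6.92 FPKM in BMP4-treated libraries. The BMP4-treated libraries stood well above the other 6, while the highest bFGF/EGF and the lowest bFGF/BMP4 libraries nearly met. Foxo1 rose by 1.64 on the log2 scale over bFGF/EGF (SE 0.14, adjusted p = 5.43e-06) and by 1.34 over bFGF/BMP4 (SE 0.14, adjusted p = 9.59e-05). The difference between bFGF/BMP4 and bFGF/EGF was 0.30, with a 95% confidence interval from -0.004 to 0.60 and an adjusted p of 0.0948.

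Foxo4 (chrX:100298073-100304479, plus strand) was ordered differently, with its highest level in bFGF/BMP4-treated NSCs. The bFGF/EGF-treated libraries were at 5.45, 5.23 and 5.34 FPKM, the bFGF/BMP4-treated at 22.9, 16.2 and 16.9 FPKM and the BMP4-treated at 11.2, 10.3 and 14.1 FPKM. All 3 groups were separate, and replicate 1 was the highest of the bFGF/BMP4-treated libraries. Foxo4 rose by 1.77 on the log2 scale in bFGF/BMP4-treated (SE 0.16, adjusted p = 1.49e-05) and by 1.13 in BMP4-treated NSCs (SE 0.16, adjusted p = 0.000207) relative to bFGF/EGF. Without BMP4 replicate 3 the latter value was 0.999, just under a 2-fold change. BMP4-treated NSCs were lower than bFGF/BMP4-treated NSCs by a difference of -0.64 (SE 0.16, adjusted p = 0.0178), which did not reach the fold threshold and had an adjusted p above 0.05 in 4 of 18 alternatives (up to 0.063, without BMP4 replicate 1).

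Foxo6 (chr4:120124276-120147792, minus strand), the FoxO gene that in the body is expressed mainly in the brain, was the least abundant of the 4 on average and the only one with its lowest mean in bFGF/BMP4-treated NSCs, where it was called lower than in both other groups, as were 1.91% of all genes tested. It was at 4.03, 3.87 and 2.29 FPKM in bFGF/EGF-treated, 1.12, 1.89 and 1.90 FPKM in bFGF/BMP4-treated and 4.97, 3.00 and 2.99 FPKM in BMP4-treated libraries, from 47 to 211 fragments each. The bFGF/BMP4-treated libraries were below the other 6, and the bFGF/EGF- and BMP4-treated libraries overlapped. Foxo6 fell by 1.00 on the log2 scale from bFGF/EGF to bFGF/BMP4 (SE 0.30, adjusted p = 0.0184) and was higher by 1.11 in BMP4- than in bFGF/BMP4-treated NSCs (SE 0.30, adjusted p = 0.0247). These calls were lost in 4 and 3 of 18 alternative analyses, among them a pseudocount of 1 (-0.73 and 0.81) and leaving out bFGF/BMP4 replicate 1 (-0.77 and 0.87). BMP4- and bFGF/EGF-treated NSCs differed by 0.10 with a confidence interval from -0.56 to 0.77.

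**Figure D2:**
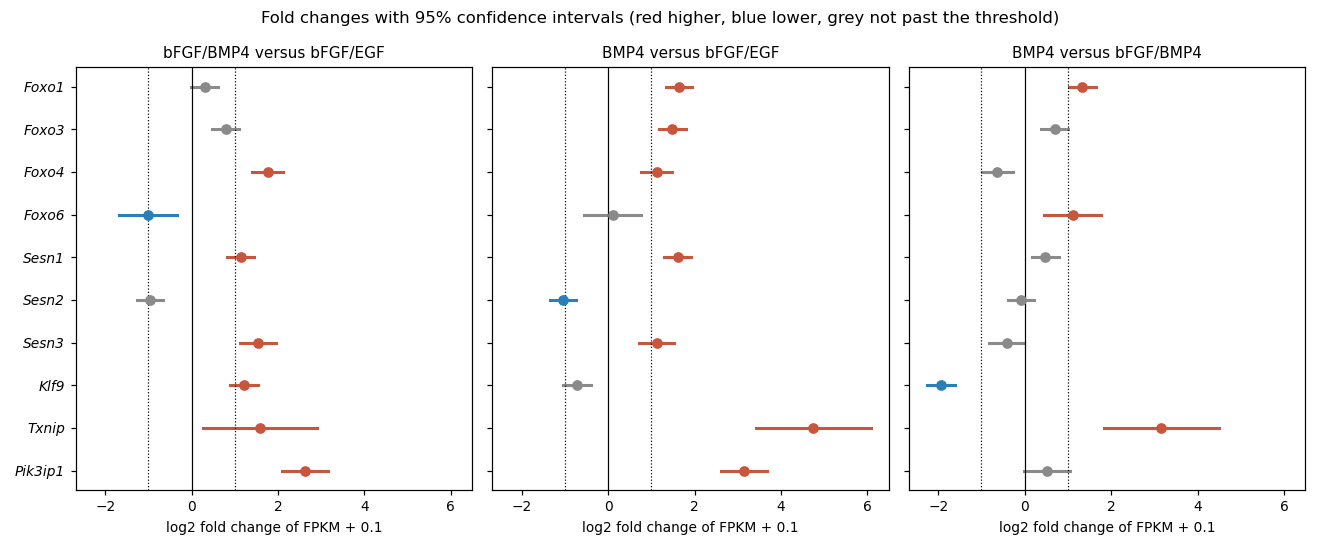
Log2 fold change of FPKM + 0.1 (horizontal axes) of each gene in the 3 comparisons, with the 95% confidence interval of the limma fit over 9 libraries; red is higher and blue lower past the adjusted p and 2-fold threshold (dotted lines), grey is not past it. The interval of Foxo1 includes 0 for bFGF/BMP4 against bFGF/EGF and lies above 1 for both comparisons of BMP4, and the intervals of Klf9 lie on opposite sides of 0.

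Summed over the 4 genes, FoxO mRNA was at 26.5 ± 2.6 FPKM in bFGF/EGF-treated, 50.1 ± 6.0 FPKM in bFGF/BMP4-treated and 66.6 ± 7.9 FPKM in BMP4-treated NSCs (SD, n = 3). FPKM is per length, so the genes can be set side by side on this scale as far as the gene lengths used for it hold. Those lengths are not given in the sources used here. The length rebuilt from the values equalled the GENCODE vM39 exon length for 37.0% of genes above 0. Foxo3 made up 58.5 ± 1.0%, 53.9 ± 0.40% and 65.6 ± 1.5% of the sum in this order of groups. The share of Foxo4 was largest in bFGF/BMP4-treated NSCs, where it was 36.9 ± 2.8%, compared with 20.3 ± 2.2% in bFGF/EGF- and 17.8 ± 1.9% in BMP4-treated NSCs. Foxo1 contributed 8.62 ± 0.54%, 5.75 ± 1.1% and 11.1 ± 1.7%, and Foxo6 12.6 ± 2.6%, 3.36 ± 1.2% and 5.48 ± 1.5%. In bFGF/EGF-treated NSCs Foxo6 had the larger FPKM share in each of the 3 libraries, but by fragments the order was the reverse in each, with 11.4%, 12.1% and 12.6% for Foxo1 and 6.27%, 5.66% and 4.05% for Foxo6. In BMP4-treated NSCs Foxo6 had the smaller share on both scales by group mean.

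The 27 genes of the PI3K-AKT-mTOR pathway upstream of FoxO were all tested, and the share called was below that of all genes in each comparison (18.5%, 18.5% and 3.7% against 30.6%, 36.6% and 13.5%). In bFGF/BMP4-treated NSCs 3 were higher and 2 lower than in bFGF/EGF-treated NSCs, in BMP4-treated NSCs 2 were higher and 3 lower, and between the day-6 groups 1 was lower. Akt1, one of the kinases that phosphorylate FoxO proteins, went from 89.0 ± 11 FPKM in bFGF/EGF-treated to 43.1 ± 0.83 FPKM in bFGF/BMP4-treated and 32.4 ± 1.0 FPKM in BMP4-treated NSCs, and fell by 1.45 on the log2 scale in the last (SE 0.11, adjusted p = 3.58e-06). Sgk1 and Sgk3, kinases related to AKT that share FoxO substrates, moved the other way: Sgk1 rose by 2.60 in bFGF/BMP4-treated NSCs (SE 0.37, adjusted p = 0.000254) and Sgk3 by 1.57 in BMP4-treated NSCs (SE 0.18, adjusted p = 5.56e-05). Pik3cb, a catalytic subunit of PI3K, fell by 1.48 in bFGF/BMP4-treated NSCs (SE 0.22, adjusted p = 0.00035). The insulin receptor gene Insr, itself a known FoxO target, was at 7.20 ± 1.3, 12.2 ± 2.1 and 4.22 ± 0.80 FPKM with bFGF/EGF, with bFGF/BMP4 and with BMP4 alone, and fell by 1.51 from bFGF/BMP4 to BMP4 (SE 0.20, adjusted p = 0.000409).

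Among 19 FoxO cofactors and modifying enzymes, 1 was higher and 3 were lower in bFGF/BMP4-treated and 2 higher and 3 lower in BMP4-treated NSCs relative to bFGF/EGF, which is 21.1% and 26.3% of the list against 30.6% and 36.6% of all genes. Between the day-6 groups limma called 0 of 19, and 4 had an adjusted p of at most 0.05 without a 2-fold change. Over all genes 13.5% were called there, and 21.1% had an adjusted p of at most 0.05. Sirt2, a deacetylase of FoxO proteins, rose to 48.6 ± 1.8 and 53.5 ± 1.4 FPKM from 19.5 ± 2.3 FPKM (log2 fold changes of 1.32 and 1.45, SE 0.11 each, adjusted p = 8.31e-06 and 2.89e-06). Prmt1, which methylates arginines near the AKT site of FoxO proteins, fell by 2.04 in bFGF/BMP4-treated NSCs (SE 0.16, adjusted p = 5.52e-06). Skp2, a ubiquitin ligase subunit that targets FOXO1 and is itself linked to cell cycle progression, fell by 2.48 in BMP4-treated NSCs (SE 0.28, adjusted p = 4.44e-05).

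The promoters of 8 of the 10 genes were found in a RefSeq table of windows from 250 bases before to 50 bases after each start, in 9 windows, and each window had 1 exact match in GRCm39. The FoxO element GTAAACA, searched on both strands, was present in 3 of the 9 windows, those of Sesn1, Klf9 and Txnip, and in 3.65% of 32851 promoters of the table. Those stretches are printed here because they are the places where a FoxO element stands next to genes whose mRNA is described below, with the element in capitals and the sequence on the strand of the gene, 5′ to 3′.
Sesn1 chr10:41686581-41686610 (+): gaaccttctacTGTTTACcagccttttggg
Klf9 chr19:23118479-23118508 (+): agggggagaaaGTAAACAgagttgaatcac
Txnip chr3:96465141-96465170 (+): ttggaggcctgGTAAACAagggccaagtag
In Sesn1 the element lies on the opposite strand, so it reads TGTTTAC here, and begins 23 bases into the RefSeq transcript, in an annotated exon. In Klf9 it begins 100 bases before the RefSeq start, within a longer GENCODE vM39 exon of Klf9 and an exon of Gm56648 on the opposite strand. In Txnip it begins 121 bases before the start, outside the exons of Txnip and within an exon of the antisense long non-coding RNA Gm15441. The Txnip promoter is shown further, up to the base before the annotated Txnip gene, since Txnip had the largest fold of the 10 genes in BMP4-treated NSCs.
Txnip chr3:96465023-96465266 (+): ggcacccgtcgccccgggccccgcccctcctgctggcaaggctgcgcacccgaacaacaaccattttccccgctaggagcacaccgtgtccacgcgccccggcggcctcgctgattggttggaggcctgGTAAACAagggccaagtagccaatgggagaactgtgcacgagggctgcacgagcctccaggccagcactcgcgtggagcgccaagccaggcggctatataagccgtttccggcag
A SMAD element, CAGACA, was found in 1 window, that of Sesn1, and in 21.0% of all promoters. The insulin response element CAAAACA (6.28% of all promoters), the E-box CACGTG (7.15%), the glucocorticoid receptor half-site AGAACA (19.0%) and the ATF4 composite element TGATGNAA (3.97%) were in 0 of the 9 windows. A match is a run of letters, and binding was not measured.

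The sestrin genes moved in different directions. Sesn1 (chr10:41685931-41784423, plus strand), a sestrin induced by p53 and FoxO factors, was at 6.34, 6.46 and 6.14 FPKM in bFGF/EGF-treated, 16.7, 13.9 and 11.8 FPKM in bFGF/BMP4-treated and 19.8, 21.4 and 17.4 FPKM in BMP4-treated libraries. The bFGF/EGF-treated libraries were close together and below all others, and the 2 day-6 groups came near each other without overlap. Sesn1 rose by 1.14 on the log2 scale with bFGF/BMP4 (SE 0.14, adjusted p = 0.000112) and by 1.61 with BMP4 (SE 0.14, adjusted p = 7.88e-06). The difference of 0.48 between the day-6 groups had an adjusted p of 0.0383 and did not reach the fold, and 8 of 18 alternatives gave an adjusted p above 0.05 (up to 0.145, without bFGF/BMP4 replicate 3). Sesn1 shares 548 exonic bases with Cep57l1 on the opposite strand, which was at 0.992 to 1.53 FPKM by group mean. Whether the counting used strand is not given in the sources used here, so fragments of such antisense partners cannot be told apart.

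Sesn3 (chr9:14186363-14244397, plus strand), the sestrin most often tied to FoxO factors, was at 15.1, 11.8 and 13.0 FPKM in bFGF/EGF-treated, 45.2, 37.3 and 34.1 FPKM in bFGF/BMP4-treated and 31.4, 22.1 and 34.7 FPKM in BMP4-treated libraries. Every day-6 library was above every bFGF/EGF-treated library, and the day-6 groups overlapped through BMP4 replicate 3. Sesn3 rose by 1.54 with bFGF/BMP4 (SE 0.18, adjusted p = 8.43e-05) and by 1.12 with BMP4 (SE 0.18, adjusted p = 0.000525). Without BMP4 replicate 3 the latter was 0.99, under the fold threshold. The day-6 groups differed by -0.42 with a confidence interval from -0.83 to -0.01 and an adjusted p of 0.147.

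Sesn2 (chr4:132219335-132237815, minus strand), the leucine-binding sestrin that is induced by ATF4 during amino acid and endoplasmic reticulum stress, went the other way. It was at 57.9, 61.5 and 48.8 FPKM in bFGF/EGF-treated, 30.4, 25.4 and 30.5 FPKM in bFGF/BMP4-treated and 28.6, 23.8 and 29.4 FPKM in BMP4-treated libraries. All bFGF/EGF-treated libraries were above all day-6 libraries, and the day-6 groups overlapped. Sesn2 fell by 1.04 on the log2 scale with BMP4 (SE 0.14, adjusted p = 0.000114). With bFGF/BMP4 the difference was -0.96 (SE 0.14, adjusted p = 0.000252), so both values lay next to the fold threshold. They crossed it under other settings, BMP4 at -0.94 without BMP4 replicate 2 and bFGF/BMP4 at -1.05 without bFGF/EGF replicate 3. The day-6 groups differed by -0.08, with a confidence interval from -0.38 to 0.22.

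The summed sestrin level was 75.7 ± 6.7 FPKM in bFGF/EGF-treated, 81.8 ± 9.2 FPKM in bFGF/BMP4-treated and 76.2 ± 7.8 FPKM in BMP4-treated NSCs (SD, n = 3), and the ranges of the 3 groups overlapped. Sesn2 made up 74.0 ± 2.8% of the sum in bFGF/EGF-treated NSCs and 35.4 ± 4.0% and 35.8 ± 0.33% in bFGF/BMP4- and BMP4-treated NSCs. Sesn3 was the largest contributor at day 6 in bFGF/BMP4-treated NSCs, with 47.4 ± 2.4%, and had 17.7 ± 2.5% in bFGF/EGF-treated and 38.2 ± 5.0% in BMP4-treated NSCs. Sesn1 had 8.38 ± 0.58%, 17.2 ± 1.6% and 26.0 ± 5.3%. By fragments, which favor long genes, Sesn2 had 46.0% and Sesn3 48.0% in bFGF/EGF-treated NSCs by group mean. The order differed between libraries, with Sesn2 against Sesn3 at 44.0% and 50.5%, 50.9% and 43.0%, and 43.2% and 50.5%. The lead of Sesn2 there thus held by FPKM, while fragments gave no clear leader.

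**Figure D3:**
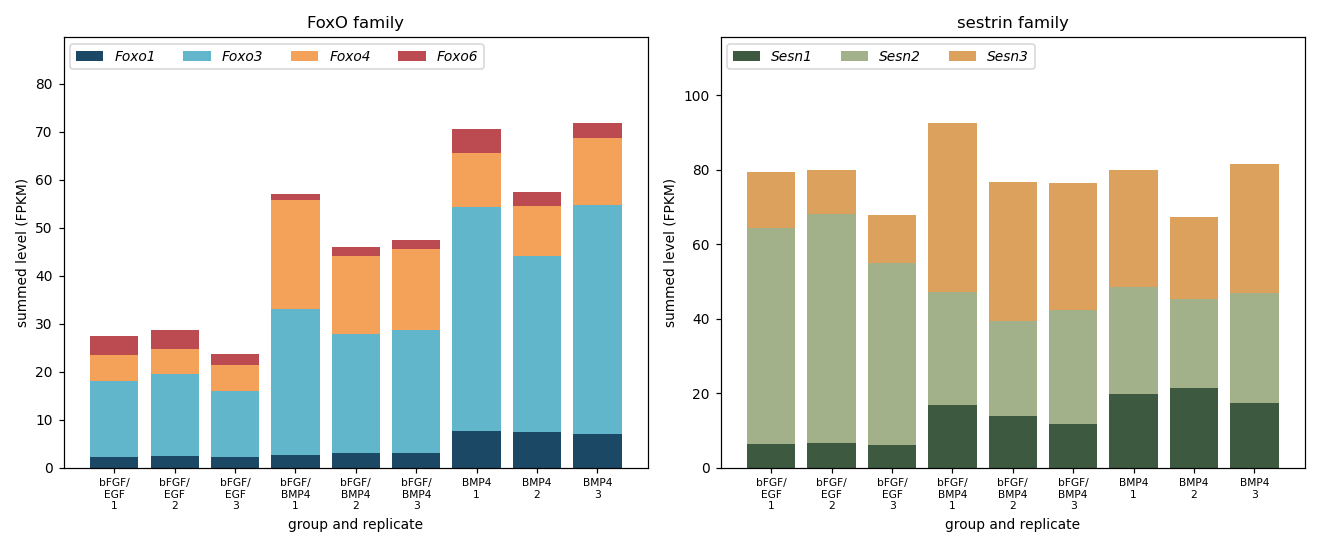
Stacked FPKM (vertical axes) of the 4 FoxO genes and of the 3 sestrin genes in each of the 9 libraries (horizontal axes, group and replicate). The FoxO sum was 23.6 to 28.6 FPKM in the bFGF/EGF-treated and 46.0 to 71.8 FPKM in the day-6 libraries, while the sestrin sum was 67.3 to 92.4 FPKM over all 9 libraries with Sesn2 the largest segment in the bFGF/EGF-treated ones.

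The 20 ATF4 and amino acid stress genes, the program that Sesn2 belongs to, were lower at day 6 for the most part. Of 19 tested, 0 were higher and 13 lower in bFGF/BMP4-treated NSCs, and 1 was higher and 12 lower in BMP4-treated NSCs, which is 68.4% of the list each time against 30.6% and 36.6% of all genes. Their median log2 fold change was -1.70 and -1.57 against bFGF/EGF. Trib3, a pseudokinase induced by ATF4, fell by 3.56 with bFGF/BMP4 (SE 0.27, adjusted p = 4.97e-06), to 0.394 ± 0.14 FPKM from 10 to 19 fragments. Chac1, a glutathione-degrading enzyme, fell by 3.80 with BMP4 (SE 0.27, adjusted p = 2.3e-06), to 0.499 ± 0.11 FPKM from 10 to 15 fragments. Atf3, a stress-induced transcription factor, was the gene called higher with BMP4: it rose by 2.17 over bFGF/EGF (SE 0.28, adjusted p = 9.48e-05), from 1.37 ± 0.46 to 6.32 ± 0.73 FPKM. In bFGF/BMP4-treated NSCs Atf3 was at 0.252 ± 0.067 FPKM, from 6 to 10 fragments, and called lower. By the adjusted p alone, 1 gene was higher and 13 lower with bFGF/BMP4 (25% and 23.6% of all genes). With BMP4 this held for 2 and 14 genes (29.6% and 25.3%). Between the day-6 groups 3 of the 19 were higher and 3 lower, with a median of -0.16, which is 31.6% against 13.5% of all genes.

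The 20 genes of the p53 target list, the list Sesn1 is often placed in, included Trp53, the p53 gene itself. Of the 20, 0 were higher and 5 lower in bFGF/BMP4-treated, and 2 higher and 3 lower in BMP4-treated NSCs. Trp53 was among the lower genes each time, at 29.5 ± 3.2 FPKM with bFGF/EGF, 10.1 ± 1.0 FPKM with bFGF/BMP4 and 10.1 ± 0.26 FPKM with BMP4. The 25% called in each comparison was below the 30.6% and 36.6% of all genes called in either direction. With bFGF/BMP4 all of it was lower, beside 14.1% of all genes called lower. By the adjusted p alone, 2 were higher and 10 lower with bFGF/BMP4 (25% and 23.6% of all genes). With BMP4 this held for 6 and 7 genes (29.6% and 25.3%). Fas, a death receptor, rose to 20.4 ± 3.8 FPKM in BMP4-treated NSCs from 1.84 ± 0.23 FPKM (log2 fold change 3.39, SE 0.16, adjusted p = 2.09e-07), and Plk2, a polo-like kinase, fell from 80.4 ± 6.4 to 6.67 ± 0.37 FPKM (log2 fold change -3.57, SE 0.13, adjusted p = 3.94e-08). Between the day-6 groups 3 were higher and 0 lower in BMP4-treated NSCs. This is 15.0% of the list beside 8.41% of all genes called higher and 13.5% called in either direction. Of 25 genes for amino acid sensing by the GATOR and Rag complexes, through which sestrins act on mTORC1, 1 was higher and 3 lower in bFGF/BMP4-treated and 3 higher and 1 lower in BMP4-treated NSCs, with 0 called between the day-6 groups and 2 at an adjusted p of at most 0.05. The 16.0% of this list called in each comparison with bFGF/EGF was below the share of all genes. Between the day-6 groups 13.5% of all genes were called, and 21.1% had an adjusted p of at most 0.05. Castor2, an arginine sensor homolog, rose to 26.2 ± 3.2 and 24.3 ± 4.2 FPKM from 6.63 ± 0.43 FPKM (adjusted p = 4.64e-06 and 4.48e-06). Fnip2, a partner of folliculin, fell by 1.75 with bFGF/BMP4 and by 1.41 with BMP4 (SE 0.15 each, adjusted p = 8.51e-06 and 2.38e-05).

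Klf9 (chr19:23118187-23148497, plus strand) was the only one of the 10 genes called higher in bFGF/BMP4-treated NSCs than in both other groups, a profile held by 2.01% of all genes tested. It was at 9.65, 7.24 and 10.1 FPKM in bFGF/EGF-treated, 21.7, 18.2 and 22.6 FPKM in bFGF/BMP4-treated and 5.21, 5.59 and 5.25 FPKM in BMP4-treated libraries. The bFGF/BMP4-treated libraries were the highest, the BMP4-treated the lowest, and the groups did not overlap. Klf9 rose by 1.21 on the log2 scale with bFGF/BMP4 (SE 0.15, adjusted p = 9.68e-05) and was lower by -1.94 in BMP4- than in bFGF/BMP4-treated NSCs (SE 0.15, adjusted p = 1.78e-05). Relative to bFGF/EGF, BMP4-treated NSCs were lower by -0.72 (SE 0.15, adjusted p = 0.00207), short of the fold threshold.

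None of the 14 other Krueppel-like factors tested was called higher in bFGF/BMP4-treated NSCs by limma, beside 16.5% of all genes. By the adjusted p alone 0 were higher, beside 25% of all genes. The 5 called were all lower, which is 35.7% of the list. Of all genes, 14.1% were called lower and 30.6% in either direction. In BMP4-treated NSCs 1 was higher and 4 were lower than in bFGF/EGF-treated NSCs, which is 35.7% of the list beside 36.6% of all genes. Relative to bFGF/BMP4-treated NSCs, 4 were higher and 0 lower in BMP4-treated NSCs. This is 28.6% of the list beside 8.41% of all genes called higher and 13.5% called in either direction. Klf10, a TGF-beta- and BMP-inducible factor, went from 26.2 ± 9.8 FPKM in bFGF/EGF-treated to 2.77 ± 1.8 and 6.31 ± 0.97 FPKM in bFGF/BMP4- and BMP4-treated NSCs and fell by 3.29 with bFGF/BMP4 (SE 0.41, adjusted p = 0.000107). Its paralog Klf11 rose by 2.42 from bFGF/BMP4 to BMP4 (SE 0.34, adjusted p = 0.000619).

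The 20 genes of glucocorticoid and thyroid hormone response, which cover the receptors and known targets of the hormones that induce Klf9, were higher at day 6 in large part. Against bFGF/EGF, 15 were higher and 1 lower with bFGF/BMP4 and 11 higher and 1 lower with BMP4, which is 80.0% and 60.0% of the list against 30.6% and 36.6% of all genes, with medians of 1.55 and 1.19. Between the day-6 groups 3 of the 20 were higher and 5 lower, beside 8.41% of all genes called higher and 5.14% called lower. The share of the list called there was above the 13.5% of all genes called in either direction. Calls went both ways, and the median was -0.13. Dio2, the enzyme that makes active thyroid hormone, was also highest with bFGF/BMP4: it was at 6.85 ± 2.7, 47.7 ± 8.9 and 4.64 ± 1.3 FPKM with bFGF/EGF, with bFGF/BMP4 and with BMP4 alone, and was lower by -3.35 in the last than in the second (SE 0.31, adjusted p = 5.24e-05). Mt2, a metallothionein induced by glucocorticoids and by zinc, was highest with BMP4, at 142 ± 44 FPKM against 13.7 ± 4.6 and 3.33 ± 2.4 FPKM. Sult1a1, a sulfotransferase, rose by 4.18 with bFGF/BMP4 (SE 0.25, adjusted p = 9.16e-07) from 5 to 11 fragments per bFGF/EGF-treated library. Fkbp5, a chaperone partner of the glucocorticoid receptor and one of its standard targets, was the gene that fell, by 1.96 with bFGF/BMP4 and by 2.29 with BMP4 (SE 0.35 each, adjusted p = 0.00121 and 0.000354).

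Txnip (chr3:96465267-96469201, plus strand) had the largest fold of the 10 genes in both comparisons of BMP4-treated NSCs. Its level was 1.86, 0.891 and 0.163 FPKM in bFGF/EGF-treated libraries, from 99, 44 and 9 fragments, then 2.55, 1.54 and 3.07 FPKM in bFGF/BMP4-treated and 24.0, 23.0 and 17.7 FPKM in BMP4-treated libraries. The 3 BMP4-treated libraries were far above the rest, and the other groups overlapped. Txnip rose by 4.75 on the log2 scale from bFGF/EGF to BMP4 (SE 0.59, adjusted p = 8.43e-05), a ratio of group means of 22.2, and was 3.16 higher with BMP4 than with bFGF/BMP4 (SE 0.59, adjusted p = 0.00366), a ratio of 9.04. The size of the first difference moved with the bFGF/EGF-treated libraries and the pseudocount: it was 3.95 without bFGF/EGF replicate 3, 5.40 without replicate 1 and 3.60 with a pseudocount of 1, past the threshold in each. The difference of 1.58 between bFGF/BMP4 and bFGF/EGF passed the threshold by little (SE 0.59, adjusted p = 0.0493). That call was lost in 13 of 18 alternative analyses, which gave values from 0.78 to 2.23. Leaving out bFGF/EGF replicate 3, the library with 9 fragments, gave 0.78 with an adjusted p of 0.0965, and leaving out bFGF/EGF replicate 1 gave 2.23 with an adjusted p of 0.00668. Gm15441, the antisense RNA that shares 928 exonic bases with Txnip, had at most 12 fragments in any library.

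Around Txnip, 18 of the 20 genes of the thioredoxin system, the alpha-arrestins and glucose sensing were tested. With bFGF/BMP4 4 were higher and 1 lower, with BMP4 7 were higher and 1 lower, and between the day-6 groups 4 were higher and 1 lower in BMP4-treated NSCs, in all 27.8%, 44.4% and 27.8% of the list against 30.6%, 36.6% and 13.5% of all genes. Txn1, the thioredoxin that Txnip binds, fell from 554 ± 9.1 FPKM to 212 ± 15 FPKM with bFGF/BMP4 and to 107 ± 28 FPKM with BMP4 (log2 fold changes of -1.39 and -2.40, SE 0.18 each, adjusted p = 0.000126 and 2.46e-06). Txn1 and Txnip were thus ordered in opposite ways over the 3 groups by mean level. Slc2a4, the insulin-responsive glucose transporter, was at 0.0559 ± 0.034 FPKM, from 1 to 5 fragments, in bFGF/EGF-treated, 0.935 ± 0.43 FPKM in bFGF/BMP4-treated and 4.01 ± 1.5 FPKM in BMP4-treated NSCs.

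Pik3ip1 (chr11:3280401-3292971, plus strand) rose in both day-6 groups and had the largest fold of the 10 genes with bFGF/BMP4. It was at 3.08, 4.19 and 3.05 FPKM in bFGF/EGF-treated, 32.6, 19.1 and 16.1 FPKM in bFGF/BMP4-treated and 29.7, 33.5 and 29.2 FPKM in BMP4-treated libraries. All day-6 libraries were above all bFGF/EGF-treated libraries, and bFGF/BMP4 replicate 1 lay among the BMP4-treated libraries. The log2 fold change was 2.63 with bFGF/BMP4 (SE 0.24, adjusted p = 1.45e-05) and 3.14 with BMP4 (SE 0.24, adjusted p = 3.06e-06). The day-6 groups differed by 0.51, with a confidence interval from -0.02 to 1.04 and an adjusted p of 0.173. Gm12592 on the opposite strand shares 470 exonic bases with Pik3ip1 and was at 0.363 to 1.39 FPKM by group mean, the highest with BMP4. A further antisense gene, Gm74265, shares 774 exonic bases with Pik3ip1 and its level was not analysed here.

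A further 30 known FoxO targets held 23 genes that were tested. They were chosen for function, but with earlier results of these data known, so the shares given here are a description. With bFGF/BMP4 9 were higher and 1 lower, and with BMP4 10 were higher and 1 lower, with medians of 0.60 and 0.77 against bFGF/EGF. These are 43.5% and 47.8% of the genes tested, beside 30.6% and 36.6% of all genes. Between the day-6 groups 3 were higher and 2 lower in BMP4-treated NSCs with a median of 0.21, which is 21.7% beside 13.5% of all genes. Pdk4, the kinase that shuts down pyruvate dehydrogenase, rose in steps like Foxo3, from 0.211 ± 0.083 FPKM (9 to 17 fragments) to 2.28 ± 0.44 and 9.89 ± 2.1 FPKM (log2 fold changes of 2.95 and 5.01, SE 0.26 each, adjusted p = 1.07e-05 and 2.74e-07). Fbxo32, the atrophy-linked ubiquitin ligase subunit, was at 10.3 ± 0.63 FPKM in BMP4- and 2.25 ± 2.0 FPKM in bFGF/BMP4-treated NSCs (log2 fold change 2.51, SE 0.49, adjusted p = 0.00453). The bFGF/BMP4-treated libraries ranged from 0.77 to 4.58 FPKM. With bFGF/EGF it was at 4.36 ± 0.98 FPKM, and neither day-6 group was called different from that. Trib1, a pseudokinase of the same family as Trib3, was also highest with bFGF/BMP4, with 9.37 ± 3.1, 23.8 ± 9.9 and 3.20 ± 0.081 FPKM, and was lower by -2.77 with BMP4 than with bFGF/BMP4 (SE 0.32, adjusted p = 0.000182). Bbc3, which encodes the pro-apoptotic protein PUMA, fell by 1.12 with bFGF/BMP4 (SE 0.22, adjusted p = 0.00205) and was at 15.6 ± 1.7 FPKM with BMP4 beside 15.1 ± 3.2 FPKM with bFGF/EGF.

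**Figure D4:**
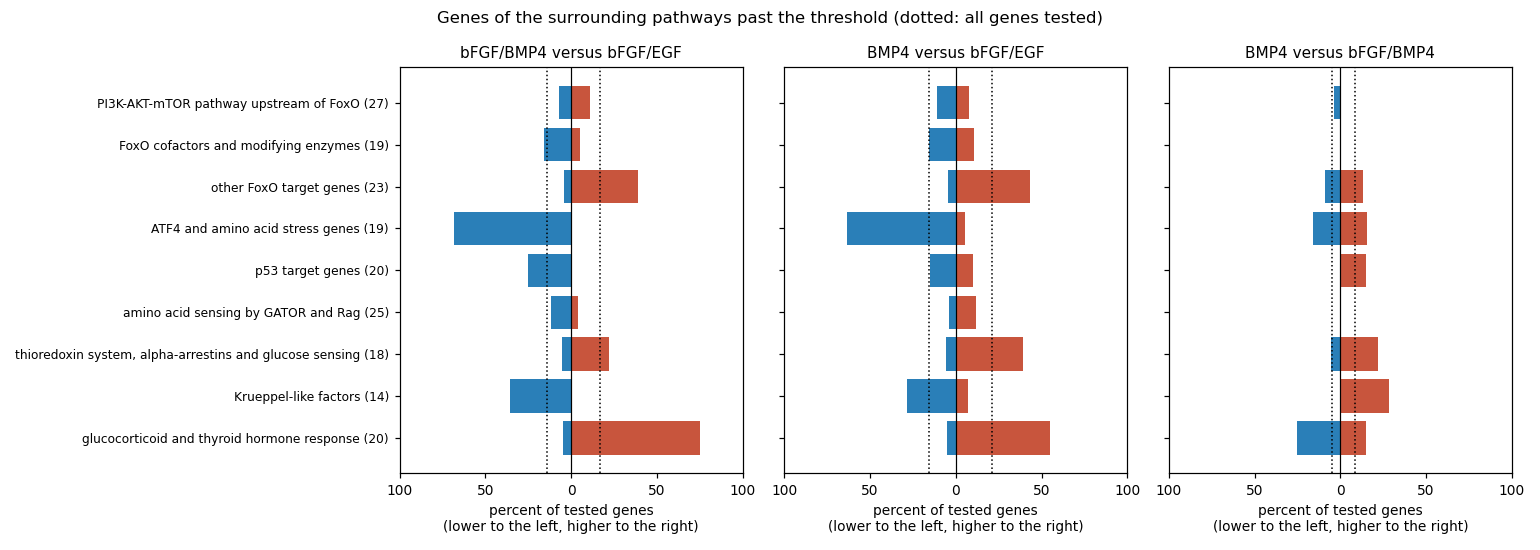
Percent of the tested genes of each list (number tested in brackets) called higher (red, right) or lower (blue, left) in the 3 comparisons; dotted lines are the percentages over all genes tested. The bars for ATF4 genes point left and those for glucocorticoid and thyroid hormone response point right in both comparisons with bFGF/EGF, with 13 of 19 lower and 15 of 20 higher for bFGF/BMP4.

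Over the 9 libraries, which fall into 3 groups and share their depth and scaling, the genes paired off by profile. Pearson's r of log2(FPKM + 0.1) was 0.98 for Foxo4 with Sesn3 and for Sesn1 with Pik3ip1, 0.94 for Foxo3 with Sesn1 and 0.93 for Foxo1 with Txnip. It was -0.93 for Sesn2 with Sesn1 and with Pik3ip1, and -0.82 for Foxo6 with Klf9. Among genes with a mean of at least 5 FPKM, the one most like Foxo1 was Serpina3n (r = 0.996), the one most like Foxo3 was Cachd1 (0.992), the one most like Foxo4 was Zbtb4 (0.990) and the one most like Foxo6 was Fbxo28 (0.964). The nearest gene was 2010001A14Rik for Sesn1 (0.994), Sall2 for Sesn2 (0.997) and Dpp8 for Sesn3 (0.985). For Klf9 it was Alcam (0.981), for Txnip Trnp1 (0.982) and for Pik3ip1 Sirt3 (0.996). With 3 well separated groups such values are common: 475 genes had an r above 0.95 with Pik3ip1, 133 with Foxo1, 19 with Klf9 and 1 with Foxo6. The next in order were Ddr1 for Foxo1, Gpam for Foxo3, Pygm for Foxo4, Tubb4a for Foxo6, Tsc22d4 for Sesn1, Sf3a1 for Sesn2, Srgap3 for Sesn3, 1700066M21Rik for Klf9, Dyrk1a for Txnip and Gdf11 for Pik3ip1.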

How the data were processed

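Libraries of total RNA from the 9 NSC cultures had been sequenced on an Illumina NovaSeq instrument. Per the labels and the submitters' processing notes, reads were handled with fastp 0.19.7, HISAT2 2.0.5 and featureCounts 1.5.0-p3 on mm39, and the authors deposited 1 table of FPKM per gene and library. The strand setting, the annotation release and the program that computed FPKM are not given in the sources used here. Levels in FPKM depend on gene length and on the total of each library, so that a few very abundant genes lower all others.

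Gene symbols and GRCm39 positions came from GENCODE vM39 (54749 of 55414 Ensembl identifiers matched), and promoter windows from a RefSeq table. Whole fragment numbers were rebuilt from the deposited FPKM for 30860 of 30860 genes above 0. Genes with a mean of at least 0.1 FPKM (20207) were fitted with limma 3.58.1 in R 4.3.3 (trend, empirical Bayes) on log2(FPKM + 0.1) over all 9 libraries without covariates, with Benjamini-Hochberg adjustment over all genes tested; a call needed an adjusted p of at most 0.05 and a fold of at least 2, the threshold the study used. A pseudocount of 0.1 understates the change of low genes. The fit was also run on simulated data in which a small part of the genes changed, by more than 2-fold, in the BMP4 group only. That run does not cover data where as many genes change as here, or changes near the fold threshold. Libraries held 15902839 to 17438650 fragments, and intervals from fits cover the spread between libraries.

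The 10 genes, the 9 pathway lists and the marker lists were chosen with earlier results of these data known. Some genes stand in more than 1 list. Apart from the 10 genes, those named are, in each list and comparison, the gene with the largest rise and the one with the largest fall past the threshold among genes with a mean of at least 1 FPKM (not every comparison of such a gene is printed), the 2 genes most like each member by Pearson's r among genes of at least 5 FPKM, markers, and antisense partners. The exceptions are C1qa, Cldn5 and Tmem212, which are markers named for being at 0, and Trp53, named because it stands in the list of p53 targets. The result of 1 marker list is not reported here. Alternatives covered the pseudocount, the filter, the scaling (TPM, median ratio, quantile), limma-voom on the rebuilt fragments, the replicate block, fits of only the groups compared, and leaving out each library. A planned comparison of the FoxO and sestrin proteins was not run here, and promoters of Foxo4 and Foxo6 were not analysed here.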

Additional observations from a re-analysis of the deposited data

How the results depend on the processing

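Of 540 fold changes of the 10 genes, 30 under 18 alternatives each, 510 kept their direction and their side of the threshold, 25 lost and 2 gained the call, and 3 changed sign. The sign changes concerned values near 0 when single libraries were left out: Foxo6 for BMP4 against bFGF/EGF ranged from -0.15 to 0.24 and was -0.15 without bFGF/EGF replicate 3 and -0.14 without BMP4 replicate 1, and Sesn2 for BMP4 against bFGF/BMP4 ranged from -0.17 to 0.015 and was 0.015 without BMP4 replicate 2. Calls were lost for Txnip with bFGF/BMP4 (13 alternatives), Foxo6 (4 and 3), Sesn2 with BMP4 (3), and Foxo4 and Sesn3 with BMP4 (1 each). Without the fold threshold, the count between the day-6 groups went from 4 to 7 (Foxo3, Foxo4 and Sesn1 added), and the genes of the 9 lists called went from 65 to 105 for bFGF/BMP4, from 67 to 116 for BMP4 and from 30 to 59 between the day-6 groups. The cause was not tested beyond the dropped condition itself.

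By rebuilt fragments instead of FPKM all 21 family shares moved by more than 1 SD, since fragments favor long genes. With the replicate block, the counts of the 10 genes called were 7, 8 and 4, as without it. Deviations of same-numbered libraries correlated from -0.084 to 0.125. With 3 libraries per group these values cannot show whether same-numbered libraries came from one isolation. limma-voom on the rebuilt fragments called 3595 genes higher and 2950 lower for bFGF/BMP4, 4562 and 3202 for BMP4, and 1875 and 1136 between the day-6 groups. Under quantile normalization the calls for BMP4 against bFGF/EGF were 3569 higher and 3604 lower, compared with 4297 and 3103, and the median of all genes went from 0.10 to -0.03. Txnip and Foxo6 rested on the fewest fragments, 9 to 141 outside the BMP4-treated libraries for Txnip and 47 to 211 for Foxo6, which limits their precision.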
